A study of Mus musculus with 40 samples.

Results

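The genes described here are 9 genes of blood coagulation and fibrinolysis, *Serpine2*, *Plat*, *Plau*, *Plaur*, *F3*, *F10*, *Thbd*, *Procr* and *Tfpi*, in mouse hearts in which cardiomyocytes were made to express *Il11*. They were chosen by gene symbol, with earlier results of these data known. All 9 are listed in the tables of both sexes, among 17831 genes listed in either table. PolyA RNA from the heart, which the study describes as left ventricular tissue, was sequenced as 1 library per mouse. There were 40 libraries, of which 38 could be placed in a group. CM-Il11-Tg mice carried 1 copy of α-MHC-MerCreMer, a Cre recombinase that tamoxifen activates and that a cardiomyocyte promoter drives, and 1 copy of *Rosa26-Il11*, from which the Cre switches on *Il11*. The induced groups are CM-Il11-Tg hearts at 1, 3 and 6 weeks after tamoxifen, which was given for 5 days at 20 mg/kg to mice 8 weeks old; the *Rosa26-Il11* parents were C57BL/6N and the α-MHC-MerCreMer parents C57BL6/J. The control group is labelled wild type with tamoxifen and, by the study's methods, held littermates that also carried α-MHC-MerCreMer but no *Rosa26-Il11*. The labels call the control hearts baseline and do not say how long after tamoxifen they were taken, so induced hearts may also differ from control in age. The uninduced group, also labelled baseline, carried both transgenes and received no tamoxifen. It thus differed from control in genotype and in treatment at once. Each group held 4 libraries per sex, except male control and male 6-week hearts, which held 3 each because 2 further male libraries have labels that contradict each other.

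Coagulation starts when tissue factor, the product of *F3*, meets factor VII in plasma and the complex activates factor X, the product of *F10*, which then forms thrombin from prothrombin. Endothelium holds thrombin in check through thrombomodulin (*Thbd*) and the endothelial protein C receptor (*Procr*), which together turn on protein C, and through tissue factor pathway inhibitor (*Tfpi*). Clots are dissolved by plasmin, which is released from plasminogen by tissue-type plasminogen activator (*Plat*) or by urokinase (*Plau*) bound to its receptor (*Plaur*), and the serpin protease nexin-1 (*Serpine2*) inhibits thrombin, urokinase and tissue-type plasminogen activator.

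Depth, as reads that fell on a listed gene, was 16663513 to 65333832 in the male libraries and 19147947 to 30929192 in the female ones. The values are CPM, and each sex was scaled on its own, so groups were compared within a sex. The columns sum to 817395 to 1196278, so reads were divided by library size and by a further factor for each library. Rescaling the columns to a common sum, an alternative used below, takes out this factor. This rescaling moved the median of all genes, induced against control, by 0.17 to 0.31 in males and 0.31 to 0.36 in females. Median-of-ratios scaling moved that median by -0.02 to -0.01 in males and 0.01 to 0.02 in females. *Il11* matched the labels in all 38 libraries, at no more than 0.166 CPM in controls, 15.5 to 49.1 CPM in uninduced hearts and 328 to 819 CPM in induced hearts. The tissue matched its label by level, since 8 cardiomyocyte markers summed to 55087 to 66625 CPM in male controls and 40617 to 59118 CPM in female controls. None of the 4 lung epithelium markers was listed. The summed level of 8 fibroblast markers ran from 720 to 1152 CPM in male controls and from 4894 to 6859 CPM at 6 weeks, and in females from 847 to 1148 CPM and from 6816 to 12154 CPM. Summed over 8 macrophage markers, the level was 206 to 335 CPM in male controls against 857 to 1207 CPM at 6 weeks, and 188 to 246 CPM against 1041 to 1188 CPM in females. The sum over 12 endothelial markers was 1324 to 1482 CPM in male controls against 914 to 1112 CPM at 6 weeks, and 1258 to 1413 CPM against 846 to 1110 CPM in females. Their part in the results on the coagulation genes was not tested, and in heart tissue fewer cells of a type and less RNA per cell cannot be told apart.

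*Serpine2*, *Plat* and *Procr* rose in both sexes at 1, 3 and 6 weeks, and *Plau* rose in females at every week and in males at 1 week. *F3* fell in males at every week and in females at 6 weeks. With columns rescaled to a common sum all of these *F3* calls were lost. Under median-of-ratios scaling, edgeR and DESeq2 the male calls held and the female call was lost. *Thbd* and *F10* passed the main test in neither sex at any week. The test was limma on log2(CPM + 0.5), fitted on all genes with at least 0.5 CPM in at least 3 libraries, and a call is an adjusted p under 0.05 over those genes. In males 8 of the 9 genes passed that filter, all except *F10*, and in females all 9 did. At 6 weeks 4 of 8 genes were called in males, where 27.1% of all 16931 genes tested were called, and 6 of 9 in females, where 42.7% of 16956 were. At 1 week 5 of 8 were called in males, against 33.5% of all genes, and 5 of 9 in females, against 28.4%. At 3 weeks 4 of 8 were called in males, against 21.3%, and 4 of 9 in females, against 31.3%. The 9 genes were chosen with earlier results of these data known, so these shares do not test them as a set. The median log2 fold change over the genes tested was 0.44 in males and 0.69 in females at 6 weeks, where the median over all genes was -0.01 and -0.02. Of the calls in males 4 were higher and 1 lower at 1 week, 3 and 1 at 3 weeks and 3 and 1 at 6 weeks, and with every column rescaled to a common sum these became 5 and 0, 6 and 0, and 3 and 0. In females the splits were 4 and 1, 4 and 0, and 5 and 1, and rescaled 6 and 0, 6 and 0, and 8 and 0, with *Plaur* and *Thbd* called higher at every week. The 8 include *F10*, which entered the female fit only through induced hearts. Under this rescaling the median log2 change of all genes was itself 0.33, 0.23 and 0.16 at 1, 3 and 6 weeks in males. In females it was 0.28, 0.30 and 0.34. The share of all genes called after rescaling was not counted, so the rescaled counts have no such figure beside them.

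**Figure D1:**
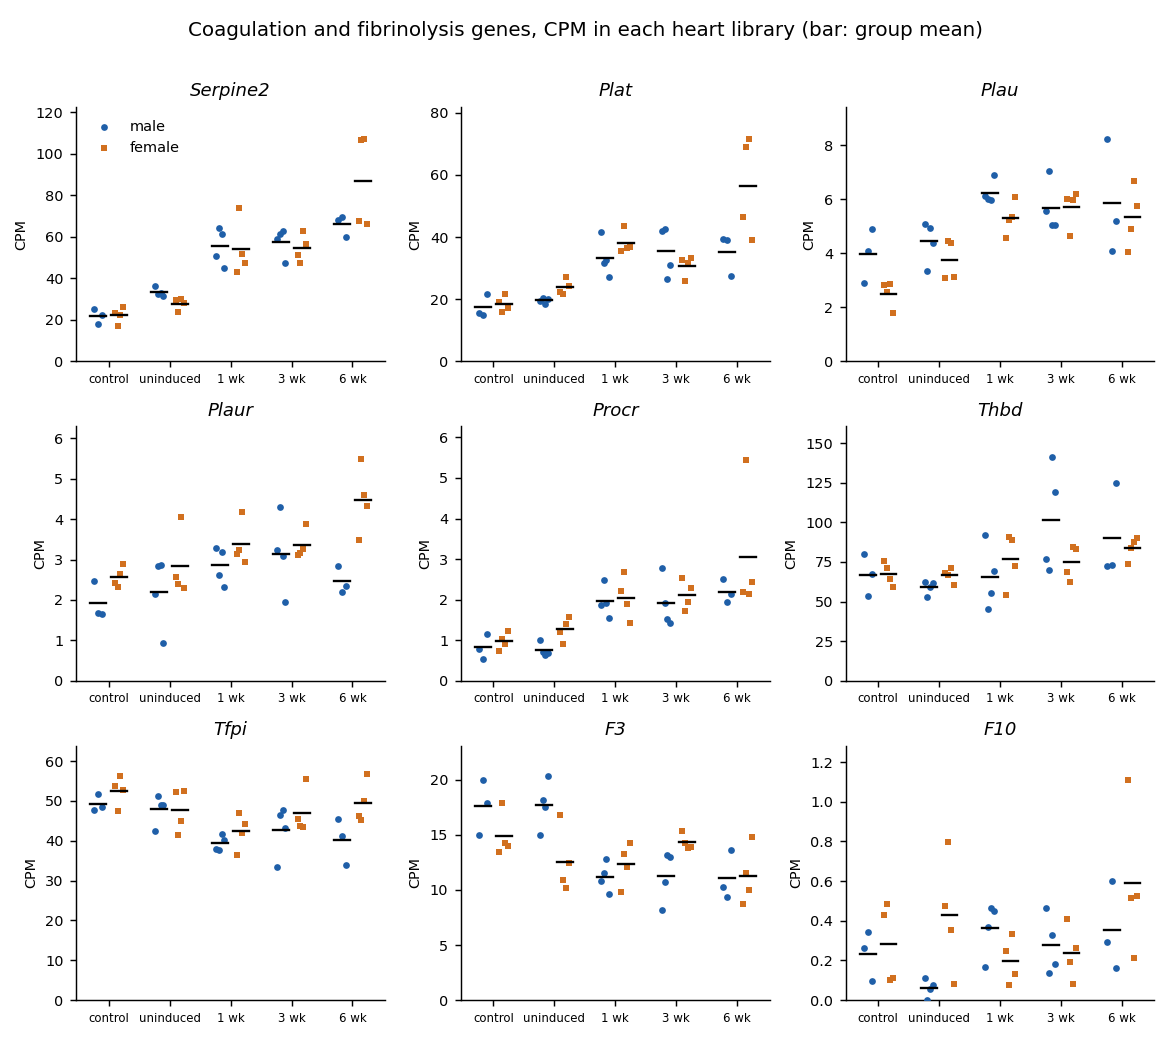
CPM (vertical axes, from 0, a separate scale for each gene) of the 9 genes in every heart library, by group along the horizontal axis, with males as blue circles, females as orange squares and a black bar at each group mean. *Serpine2* ran from 60.0 to 69.5 CPM in male and from 65.9 to 107 CPM in female hearts at 6 weeks, above all controls, whereas *F3* in male hearts at 6 weeks lay at 9.32 to 13.6 CPM, below all male controls.

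To show the sequence around the starts of genes that moved together, the 250 bases before the annotated start of the main transcript were read from GRCm39 for *Plat* and *Procr*, which rose in both sexes at each week. Capitals mark any match, on either strand, to TTCNNNGAA (a site of the kind STAT factors bind), TGANTCA (AP-1), GGGCGG (a GC box, which can overlap another GC box) or TATAAA. The *Plat* region is chr8:23247459-23247708 on the plus strand and the *Procr* region is chr2:155592781-155593030 on the plus strand, both 5′ to 3′.
Plat: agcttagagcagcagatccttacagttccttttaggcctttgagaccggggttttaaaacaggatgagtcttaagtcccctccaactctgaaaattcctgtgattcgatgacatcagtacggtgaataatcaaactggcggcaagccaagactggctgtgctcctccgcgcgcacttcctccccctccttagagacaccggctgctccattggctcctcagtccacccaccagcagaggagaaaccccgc
Procr: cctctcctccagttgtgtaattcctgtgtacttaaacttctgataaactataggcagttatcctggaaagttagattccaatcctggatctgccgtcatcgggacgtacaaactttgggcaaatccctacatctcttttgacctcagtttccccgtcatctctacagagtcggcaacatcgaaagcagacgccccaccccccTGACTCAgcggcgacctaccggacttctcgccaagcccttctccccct

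*Plat* held none of these motifs, and *Procr* held TGANTCA from base -48 to base -42, counted back from the start. Over all 9 genes TGANTCA was found in 3 regions, those of *Procr*, *Plaur* and *F3*, and in 6.17% of 21770 regions of the same length before protein-coding genes. The stretches of 30 bases around these matches are set side by side because the 3 genes differ in their change with induction, TGANTCA in capitals: *Procr* chr2:155592972-155593001, *Plaur* chr7:24161828-24161857 and *F3* chr3:121517034-121517063, all on the plus strand of GRCm39.
Procr: ccccaccccccTGACTCAgcggcgacctac
Plaur: acccctggagcTGACTCActctttagcaaa
F3: cgctgtTGAATCAcggtTGAGTCAcccctt

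*F3* held the motif at 2 places, and it differs from *Procr* and *Plaur* in that its level was lower in induced male hearts. TTCNNNGAA was in 0 of the 9 regions and in 7.7% of all regions, and TATAAA in 0 of 9 and in 11.9%. GGGCGG was in 5 of the 9 (*Serpine2*, *Plau*, *Plaur*, *F3* and *Thbd*) and in 36.3% of all regions. These matches describe the letters of the window only. Of the 250 bases, 208 in *Serpine2*, 122 in *F3*, 93 in *Thbd* and all 250 in *Tfpi* lie in annotated exons of the same gene.

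*Serpine2* (chromosome 1, 79763323 to 79839144, minus strand) showed the largest change of the 9 genes in both sexes at 6 weeks. In male controls it was 25, 18.1 and 22.1 CPM, and at 6 weeks 68.2, 69.5 and 60.0 CPM. In female controls it was 23.3, 16.9, 22.4 and 26.1 CPM, and at 6 weeks 67.5, 106, 107 and 65.9 CPM. The groups were apart in both sexes, and the rise was 1.59 ± 0.15 (SE) in males (limma adjusted p = 1.1e-07) and 1.92 ± 0.18 in females (adjusted p = 3.45e-08), on the log2 scale. The male hearts held 50.6, 64.3, 61.2 and 45 CPM at 1 week and 58.8, 61.5, 62.5 and 47.2 CPM at 3 weeks, and the female hearts 43, 73.7, 51.9 and 47.5 CPM at 1 week and 51.3, 47.3, 63.0 and 56.3 CPM at 3 weeks. All of these lie above all controls of their sex, and the log2 change was 1.32 ± 0.14 at 1 week and 1.39 ± 0.14 at 3 weeks in males, and 1.25 ± 0.18 and 1.29 ± 0.18 in females. A predicted gene on the other strand, *Gm39666*, overlaps *Serpine2*, and whether counting used strand is not given in the sources used here.

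*Plat* (chromosome 8, 23247709 to 23272871, plus strand), which encodes the plasminogen activator best known from endothelium, rose in both sexes at every week. It was 15.7, 15.0 and 21.8 CPM in male controls and 39.4, 39.1 and 27.5 CPM in male hearts at 6 weeks, and 19.1, 15.9, 21.7 and 17.2 CPM in female controls and 46.5, 69.0, 71.6 and 39.0 CPM in female hearts at 6 weeks. No induced heart overlapped the controls of its sex at any week. The rise at 6 weeks was 1.00 ± 0.19 in males (2-fold; limma adjusted p = 0.00061) and 1.55 ± 0.16 in females (2.93-fold; adjusted p = 1.1e-07). At 1 and 3 weeks the log2 change was 0.91 ± 0.18 and 0.99 ± 0.18 in males, and 1.03 ± 0.16 and 0.73 ± 0.16 in females. Female values at 3 weeks, 32.6, 25.9, 31.5 and 33.2 CPM, were all below the female values at 1 week, 35.5, 43.7, 36.6 and 36.9 CPM.

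*Plau* (chromosome 14, 20886722 to 20893453, plus strand), the urokinase gene, was called at every week in females. Female controls held 2.84, 2.56, 2.85 and 1.77 CPM, and the female hearts 4.55, 5.25, 5.35 and 6.07 CPM at 1 week, 5.99, 4.64, 5.96 and 6.20 CPM at 3 weeks and 4.04, 4.90, 6.67 and 5.76 CPM at 6 weeks. The log2 rise was 0.96 ± 0.16, 1.05 ± 0.16 and 0.95 ± 0.16 at 1, 3 and 6 weeks (limma adjusted p = 0.000146, 4.45e-05 and 9.74e-05). Male controls held 2.89, 4.09 and 4.90 CPM. Male hearts at 1 week held 6.13, 5.99, 5.95 and 6.89 CPM, above the male controls, a log2 rise of 0.62 ± 0.20 (adjusted p = 0.0243). The male values at 3 weeks (0.49 ± 0.20, adjusted p = 0.0995) and at 6 weeks (0.48 ± 0.22, adjusted p = 0.108) missed the threshold, with 95% intervals of 0.06 to 0.91 and 0.03 to 0.94. With columns rescaled the value at 3 weeks passed (0.72, adjusted p = 0.0281), and the 6-week value ran from 0.23 without 6-week replicate 1 to 0.69 without 6-week replicate 3, where it passed (adjusted p = 0.0294). The male call at 1 week was lost without control replicate 1, control replicate 3 or 1-week replicate 4.

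*Plaur* (chromosome 7, 24161875 to 24175394, plus strand), the urokinase receptor, was called in females at 6 weeks, and with columns rescaled to a common sum also at 1 and 3 weeks in both sexes. Female controls held 2.41, 2.32, 2.65 and 2.88 CPM and the 6-week hearts 3.49, 5.50, 4.60 and 4.32 CPM, a log2 rise of 0.69 ± 0.16 (limma adjusted p = 0.00154) with no overlap. Female hearts at 1 and 3 weeks also lay above the controls, at 2.95 to 4.18 CPM and 3.12 to 3.88 CPM, but the change of 0.33 ± 0.16 at each of these weeks did not pass (adjusted p = 0.123 and 0.118). Male controls held 2.47, 1.67 and 1.66 CPM and the male 6-week hearts 2.84, 2.19 and 2.36 CPM, which overlap (0.29 ± 0.28, adjusted p = 0.464, 95% interval -0.29 to 0.87).

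*Procr* (chromosome 2, 155593031 to 155597397, plus strand), the endothelial protein C receptor, was expressed at about 1 CPM in controls and rose in both sexes. Male controls held 0.787, 0.530 and 1.16 CPM and male 6-week hearts 2.5, 1.94 and 2.15 CPM. Female controls held 0.732, 1.02, 0.901 and 1.22 CPM and female 6-week hearts 2.18, 5.46, 2.14 and 2.44 CPM. The groups did not overlap, also at 1 week (1.54 to 2.49 CPM in males, 1.43 to 2.68 CPM in females) and at 3 weeks (1.44 to 2.78 CPM and 1.71 to 2.53 CPM). On the log2(CPM + 0.5) scale, which understates the change of a gene this low, the rise was 0.91, 0.86 and 1.05 at 1, 3 and 6 weeks in males (limma adjusted p = 0.0021, 0.00442 and 0.00128) and 0.78, 0.83 and 1.20 in females (adjusted p = 0.0112, 0.00682 and 0.000233). The SE of these values was 0.20 in males at 1 and 3 weeks and 0.22 otherwise. The library at 5.46 CPM, replicate 2, stood apart from the other 3 female hearts at 6 weeks.

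*Thbd* (chromosome 2, 148216045 to 148250201, minus strand), thrombomodulin, the partner of *Procr* in turning on protein C, was not called at any week in the main test. It was called higher with columns rescaled in females at every week and in males at 3 weeks, with the replicate block in males at 3 weeks, and in females at 6 weeks with 2 groups in the fit (adjusted p = 0.0295) or without 6-week replicate 1 (adjusted p = 0.0489). It was 80.0, 53.3 and 67.1 CPM in male controls, 91.9, 45.3, 55.4 and 69.1 CPM at 1 week, 76.8, 69.9, 141 and 119 CPM at 3 weeks and 72.5, 73.1 and 125 CPM at 6 weeks. Male hearts thus spread from 69.9 to 141 CPM at 3 and 6 weeks, and each group overlapped the controls. The male change was 0.56 ± 0.25 at 3 weeks (limma adjusted p = 0.121) and 0.40 ± 0.27 at 6 weeks (adjusted p = 0.284), with 95% intervals of 0.04 to 1.08 and -0.16 to 0.96. In females it was 75.7, 71.1, 64.5 and 59.1 CPM in controls and 73.8, 84, 87.4 and 90.1 CPM at 6 weeks, a change of 0.31 ± 0.14 (adjusted p = 0.0734, 95% interval 0.02 to 0.60). *Sstr4* overlaps *Thbd* on the other strand.

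*F3* (chromosome 3, 121516610 to 121528820, plus strand), which encodes tissue factor, the starter of coagulation, was lower in induced male hearts. Male controls held 15, 20 and 17.9 CPM, and the hearts 10.8, 11.5, 12.8 and 9.62 CPM at 1 week, 8.21, 10.7, 13.2 and 13 CPM at 3 weeks and 10.2, 9.32 and 13.6 CPM at 6 weeks. All 11 induced male hearts lay below all 3 controls. The log2 change was -0.63 ± 0.17, -0.64 ± 0.17 and -0.66 ± 0.18 at 1, 3 and 6 weeks (limma adjusted p = 0.00699, 0.00956 and 0.0102). Female controls held 13.5, 17.9, 14.3 and 14 CPM and female 6-week hearts 8.76, 11.5, 9.97 and 14.8 CPM, which overlap (-0.41 ± 0.16, adjusted p = 0.0435). The female change was -0.27 ± 0.16 at 1 week (adjusted p = 0.226) and -0.05 ± 0.16 at 3 weeks (adjusted p = 0.851). The columns of induced hearts sum to less than those of controls, with an overlap in males (817395 to 1165099 against 1063756 to 1193422 in males and 848402 to 985319 against 1181923 to 1196278 in females), and rescaling each to a common sum moved the median of all genes against control by 0.17 to 0.31 in males and 0.31 to 0.36 in females. The *F3* change then became -0.29, -0.38 and -0.47 in males (adjusted p = 0.162, 0.0932 and 0.0512) and -0.02 in females at 6 weeks (adjusted p = 0.92). The rescaled median of all genes was 0.33, 0.23 and 0.16 in males and 0.34 in females at 6 weeks. Under median-of-ratios scaling, edgeR and DESeq2 the male calls held, and the female call was lost (adjusted p = 0.053, 0.0567 and 0.0629). Without male control replicate 3, as with rescaling, the male calls were lost (adjusted p = 0.0504, 0.0682 and 0.0587). On the other strand 2 genes, *Gm64338* and *Gm43823*, overlap *F3*.

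*Tfpi* (chromosome 2, 84263195 to 84307164, minus strand), the inhibitor of the tissue factor complex, was called in females at 1 week. Female controls held 53.8, 47.4, 56.4 and 52.8 CPM and female hearts at 1 week 36.5, 47, 41.9 and 44.1 CPM, below the controls (-0.31 ± 0.11, limma adjusted p = 0.0328). In males the controls held 47.8, 51.7 and 48.4 CPM and the hearts at 1 week 37.9, 37.8, 41.8 and 40.2 CPM, with no overlap. That male change of -0.32 missed the threshold (adjusted p = 0.0519) and passed it with the stricter filter, median-of-ratios scaling, the replicate block, DESeq2 or 2 groups in the fit. The male 3-week hearts held 33.4, 46.6, 47.6 and 43.3 CPM, below the male controls, and were not called. The male 6-week hearts held 45.4, 41.2 and 33.9 CPM, also apart, with a change of -0.30 ± 0.13 that did not pass (adjusted p = 0.0969). In females at 6 weeks the change was -0.09 (adjusted p = 0.531). With columns rescaled to that common sum the direction turned, to 0.03 at 1 week in each sex and to 0.31 in females at 6 weeks (adjusted p = 0.0375), while in males at 6 weeks it was -0.11 ± 0.17 (adjusted p = 0.69). Under that scaling the median of all genes was 0.33 in males and 0.28 in females at 1 week. At 6 weeks the median was 0.16 in males and 0.34 in females, so rescaled *Tfpi* did not lie above it.

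*F10* (chromosome 8, 13087293 to 13106676, plus strand), which encodes factor X, made mainly in the liver, was near the limit of detection, with at most 0.6 CPM in male and 1.11 CPM in female libraries. Females held 0.431, 0.484, 0.1 and 0.111 CPM in controls and 1.11, 0.516, 0.211 and 0.524 CPM at 6 weeks, a change of 0.46 ± 0.26 (limma adjusted p = 0.161). In males, fitted with no filter, the change at 6 weeks was 0.20 ± 0.22 (adjusted p = 0.54). *F10* entered the female fit only through induced hearts. With columns rescaled it was called higher in females at 6 weeks. Otherwise a difference was not detectable at this depth. The summed level of 5 hepatocyte markers ran up to 85.1 CPM in a female library at 6 weeks against at most 4.6 CPM in female controls. The female medians were 3.32 CPM at 6 weeks and 3.9 CPM in controls, and the uninduced female median was 17.1 CPM, with up to 41.4 CPM. The part of this hepatocyte marker level in the *F10* values was not tested.

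**Figure D2:**
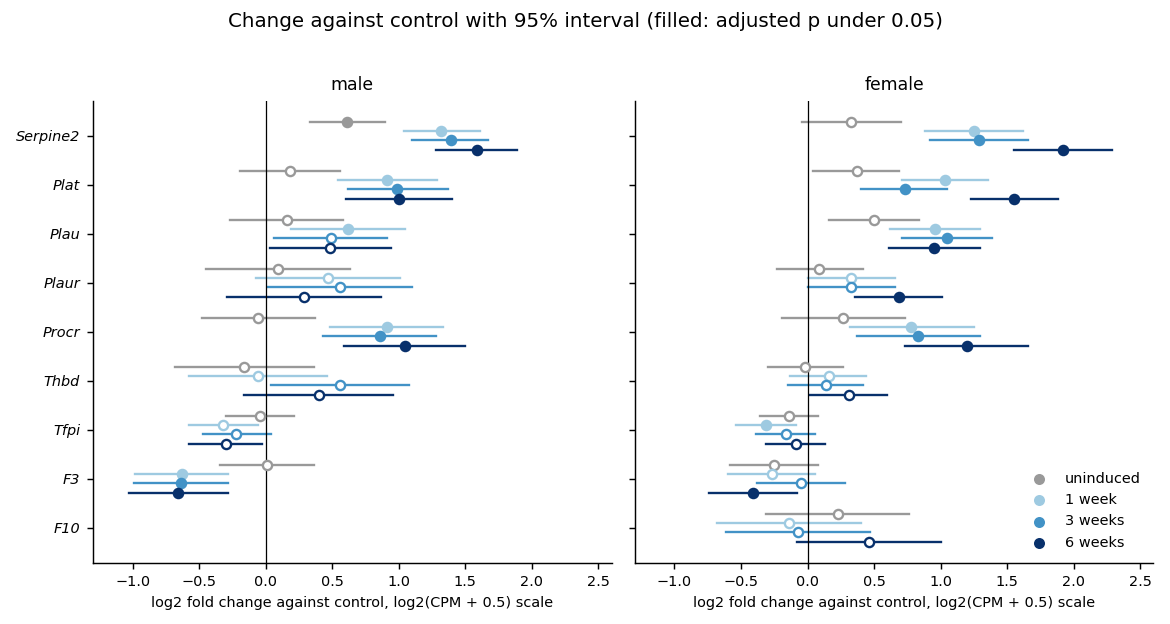
Log2 fold change against control (horizontal axis, log2(CPM + 0.5) scale) for the 9 genes in males (left) and females (right), as points with 95% intervals, grey for uninduced hearts and light to dark blue for 1, 3 and 6 weeks, filled where the adjusted p is under 0.05. *Serpine2* lies at 1.59 in males and 1.92 in females at 6 weeks, and *F3* at -0.66 in males. *F10* was not in the male fit.

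No difference between weeks passed the main test. Between 3 and 1 week, 6 and 1 week and 6 and 3 weeks, limma called 0 of the 9 genes in either sex, where it called 0.0177%, 0.165% and 0% of all genes in males and 0.218%, 1.03% and 0% in females. At an unadjusted p under 0.05 the male counts were 1 (*Thbd*), 0 and 0 and the female counts 0, 5 and 4, and edgeR called 0 in all 6 comparisons. DESeq2 called 2 genes in females, *Serpine2* and *Plat*, between 6 and 1 week and between 6 and 3 weeks, and 0 in the other comparisons of weeks. By limma, female *Serpine2* was 0.67 ± 0.18 higher at 6 weeks than at 1 week (adjusted p = 0.0799) and 0.63 ± 0.18 higher than at 3 weeks (adjusted p = 0.17). Female *Plat* was 0.52 ± 0.16 higher at 6 weeks than at 1 week (adjusted p = 0.133) and 0.83 ± 0.16 higher than at 3 weeks (adjusted p = 0.0794).

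Few of the 9 genes were called in uninduced hearts, in which *Il11* was already above control. In males 1 of 8 genes was called, against 0.597% of all genes, and in females 0 of 9, against 2.87%. The male call was *Serpine2*, at 36.3, 32.6, 32.8 and 31.3 CPM in uninduced hearts, above the 3 controls (0.61 ± 0.14, limma adjusted p = 0.0431). That call was lost when any library of either group was left out, under a pseudocount of 2, with the replicate number as a block, where the change was 0.58, and in edgeR. In females *Serpine2* was 29.5, 23.6, 30.1 and 28 CPM in uninduced hearts, which overlap the controls (0.33 ± 0.18, adjusted p = 0.396). The female counts at an unadjusted p under 0.05 were 2 genes, *Plat* (0.37 ± 0.16) and *Plau* (0.50 ± 0.16), and edgeR and DESeq2 called 0.

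Set against uninduced hearts, which also carry both transgenes, the 6-week hearts had 4 of 8 genes called in males, against 20.4% of all genes, and 5 of 9 in females, against 22.8%. In males these were *Serpine2* (0.98 ± 0.14), *Plat* (0.81 ± 0.18), *Procr* (1.11 ± 0.20) and *F3* (-0.67 ± 0.17, limma adjusted p = 0.00772). The male *F3* call held in this comparison with columns rescaled, and the uninduced male hearts, at 15.0, 18.2, 17.5 and 20.4 CPM, were all above the 3 hearts at 6 weeks. In females they were *Serpine2* (1.59 ± 0.18), *Plat* (1.18 ± 0.16), *Procr* (0.93 ± 0.22), *Plaur* (0.59 ± 0.16) and *Plau* (0.45 ± 0.16, adjusted p = 0.0498). The *Plau* call was lost in 5 of 8 fits with a library left out, with a pseudocount of 0.1, with no filter and with 2 groups in the fit, and the *Plaur* call with 2 groups in the fit (adjusted p = 0.0722). This comparison shares its 6-week libraries with that against control, and its groups differ in tamoxifen as well as in the level of *Il11*. The labels give no age for the uninduced hearts, so these groups may also differ in age.

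Per kilobase of exon, a scale that depends on the exons annotated for each gene, *Thbd* and *Tfpi* ranked highest in controls and *F10* lowest. In male controls the mean level in CPM per kb was 9.13 ± 1.83 (SD, n = 3) for *Thbd*, 8.02 ± 0.347 for *Tfpi*, 5.68 ± 0.804 for *F3*, 2.51 ± 0.535 for *Plat*, 1.76 ± 0.281 for *Serpine2*, 1.54 ± 0.393 for *Plau*, 0.483 ± 0.117 for *Plaur*, 0.403 ± 0.154 for *Procr* and 0.0852 ± 0.0452 for *F10*. Neighbours whose libraries overlap in this order are *Thbd* and *Tfpi*, *Serpine2* and *Plau*, and *Plaur* and *Procr*. Female controls had the same order, from 9.24 ± 0.997 (SD, n = 4) for *Thbd* to 0.102 ± 0.0743 for *F10*. In female hearts at 6 weeks *Plat* had reached 8.10 ± 2.32 and *Serpine2* 7.03 ± 1.87 CPM per kb, beside 8.07 ± 0.862 for *Tfpi* and 3.65 ± 0.842 for *F3*, which had been above both in controls. Exon lengths are those of all annotated transcripts joined, in a GENCODE release of GRCm39 that may differ from the annotation used for counting. A joined length, such as 12315 bases for *Serpine2*, can exceed that of the transcript expressed, by a different factor in each gene. The order of genes is therefore uncertain, whereas a change within a gene does not depend on its length.

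**Figure D3:**
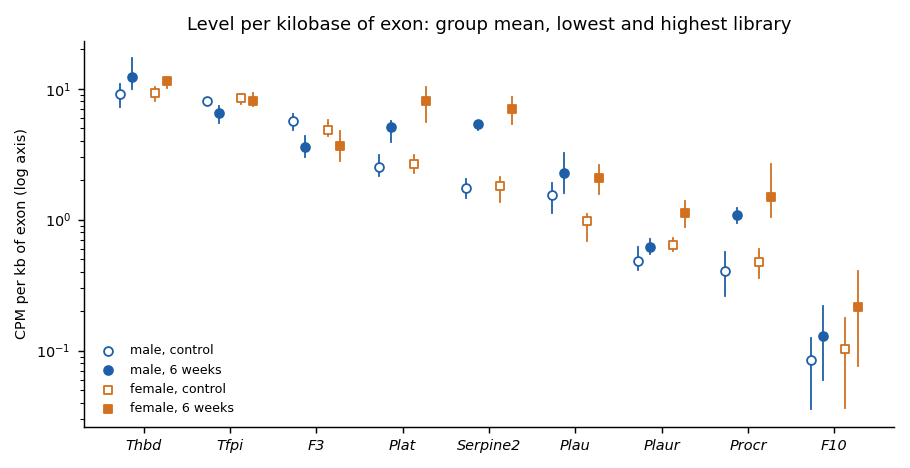
Level in CPM per kilobase of exon (vertical log axis) of the 9 genes in controls (open) and at 6 weeks (filled), with males as blue circles and females as orange squares, as group means with lines from the lowest to the highest library. *Plat* in females moved from 2.65 to 8.10 CPM per kb, where *Tfpi* was 8.07, an order between genes that depends on the annotated exon lengths.

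The rest of the pathway was followed in a list of 40 further genes, also chosen with earlier results of these data known. Of the 40, 22 were tested in males and 24 in females. Of these, 6 in males and 8 in females, *F5* and *Kng2* among them, reached the filter only through induced hearts, so a call of theirs could hardly be lower. At 6 weeks 8 rose and 0 fell in males, 5 and 0 of 16 without those genes, where 16.2% of all genes rose and 10.9% fell. In females 12 rose and 3 fell, 9 and 3 of 16 without them, where 21.7% rose and 21% fell. At 1 week 10 rose and 1 fell in males (18.9% and 14.6% of all genes) and 9 rose and 3 fell in females (15.3% and 13.1%). At 3 weeks 8 rose in males (13.2%, with 8.1% of all genes lower), and 9 rose and 3 fell in females (16.8% and 14.5%). Without the genes that entered through induced hearts, the splits at 1 week were 7 and 1 of 16 in males and 7 and 3 of 16 in females. At 3 weeks they were 5 and 0 of 16 in males and 7 and 3 of 16 in females. With columns rescaled the female split became 11 and 1, 11 and 0, and 14 and 1 at 1, 3 and 6 weeks, and the male split at 1 week 13 and 1. From these rescaled counts the genes that entered through induced hearts were not removed, and rescaling also raised the median of all genes. Uninduced male hearts had 0 calls by limma, edgeR and DESeq2, with 3 genes at an unadjusted p under 0.05 in limma, and females had 1 call, *F13a1* (0.81 ± 0.13, limma adjusted p = 0.000859).

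Among the procoagulant genes of this list, *F5*, *F13a1*, *Vwf* and *Kng2* rose in both sexes at all 3 weeks, of which *F5* and *Kng2* were tested only because induced hearts held them above the filter. *F5*, which encodes factor V, the cofactor of factor X, was 0.222 ± 0.077 CPM (SD) in male controls, 0.742 ± 0.278 after 1 week, 2.55 ± 0.404 after 3 and 5.35 ± 1.63 after 6. The female means were 0.205 ± 0.106 in controls, 0.97 ± 0.101, 2.23 ± 0.617 and 4.37 ± 2.06 CPM. The log2 change of *F5* at 6 weeks was 2.99 ± 0.22 (SE) in males and 2.71 ± 0.23 in females, the largest of the list on this scale.

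*F13a1*, the A chain of the factor that crosslinks fibrin, a transcript that macrophages also make, rose by 1.16 ± 0.33 in males (limma adjusted p = 0.0134) and 1.43 ± 0.13 in females (adjusted p = 2.7e-08) at 6 weeks. The female rise of *F13a1* was 2.00 ± 0.13 at 1 week. *Vwf*, the von Willebrand factor of endothelium and platelets, went from 49 ± 5.98 CPM (SD) in male controls to 143 ± 30.2 at 6 weeks (1.52 ± 0.20, SE) and from 70.8 ± 13.7 to 110 ± 13 in females (0.64 ± 0.19, adjusted p = 0.00926), while the sum of the 12 endothelial markers was lower. The summed level of 8 platelet markers, of which *Gp1bb*, *Gp9* and *Gp6* are not listed, nor *Treml1* in females, ran from 9.2 to 12.2 CPM in male controls and from 24 to 46.2 CPM at 6 weeks, and from 9.3 to 14.2 CPM and from 20.8 to 30.8 CPM in females, and its part in the *Vwf* and *F13a1* values was not tested. *Kng2*, a kininogen gene, held 1 read in all over the male controls and 102 over the 6-week hearts, a ratio of 104 with a 95% counting interval of 18.2 to 4144, and in females 1 and 153 reads, a ratio of 115 with an interval of 20.3 to 4554. *Kng2* has a close paralog, *Kng1*, so how reads were shared between them is uncertain. The fibrinogen genes *Fga* and *Fgg* passed in neither sex at 6 weeks.

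On the anticoagulant side *Pros1* and *Serpind1* rose at all 3 weeks in both sexes. *Pros1*, protein S, the cofactor of protein C, was 17.1 to 21.9 CPM in male controls and 33.7 to 54.1 CPM at 6 weeks, and 17.5 to 22.9 CPM and 56.9 to 74.3 CPM in females. Its log2 rise was 1.22 ± 0.15 in males (limma adjusted p = 5.05e-06) and 1.63 ± 0.15 in females (adjusted p = 2.03e-08). *Serpind1*, heparin cofactor II, an inhibitor of thrombin, rose by 1.61 ± 0.21 in males and 1.47 ± 0.18 in females, from 0.189 and 0.381 CPM in controls, and in males it too was tested through induced hearts.

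In the plasminogen system *Anxa2* and *Lrp1* rose at all 3 weeks in both sexes. Other genes of this system fell in females. *Serpini1*, from the inhibitors of fibrinolysis on the list, was called lower at 1, 3 and 6 weeks, and *Plgrkt* at 6 weeks. Some of these lower calls were lost with columns rescaled, and neither gene was called in males. *Anxa2*, which with *S100a10* binds plasminogen and its activator at the cell surface, was 58.1 ± 9.71 CPM (SD) in male controls and 121 ± 7.46 at 6 weeks, and 70.9 ± 11.7 and 163 ± 33.8 in females, a log2 rise of 1.07 ± 0.14 (SE) and 1.19 ± 0.19. Its partner *S100a10* was not called higher: the change was 0.39 ± 0.21 in males at 6 weeks (limma adjusted p = 0.194) and was lower in females at 1 and 3 weeks (-0.44 ± 0.14 at each, adjusted p = 0.0249 and 0.0244), calls that were lost with columns rescaled (-0.10 and -0.09). *Lrp1*, a receptor that takes up activator and inhibitor complexes, rose by 0.95 ± 0.18 in males and 1.09 ± 0.16 in females at 6 weeks. *F2r*, the main thrombin receptor of the list, had a change of 0.12 ± 0.21 and 0.15 ± 0.14 at 6 weeks (limma adjusted p = 0.73 and 0.417), and *F2rl3*, another thrombin receptor, was lower in females at 6 weeks (-0.84 ± 0.19, adjusted p = 0.00121).

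**Figure D4:**
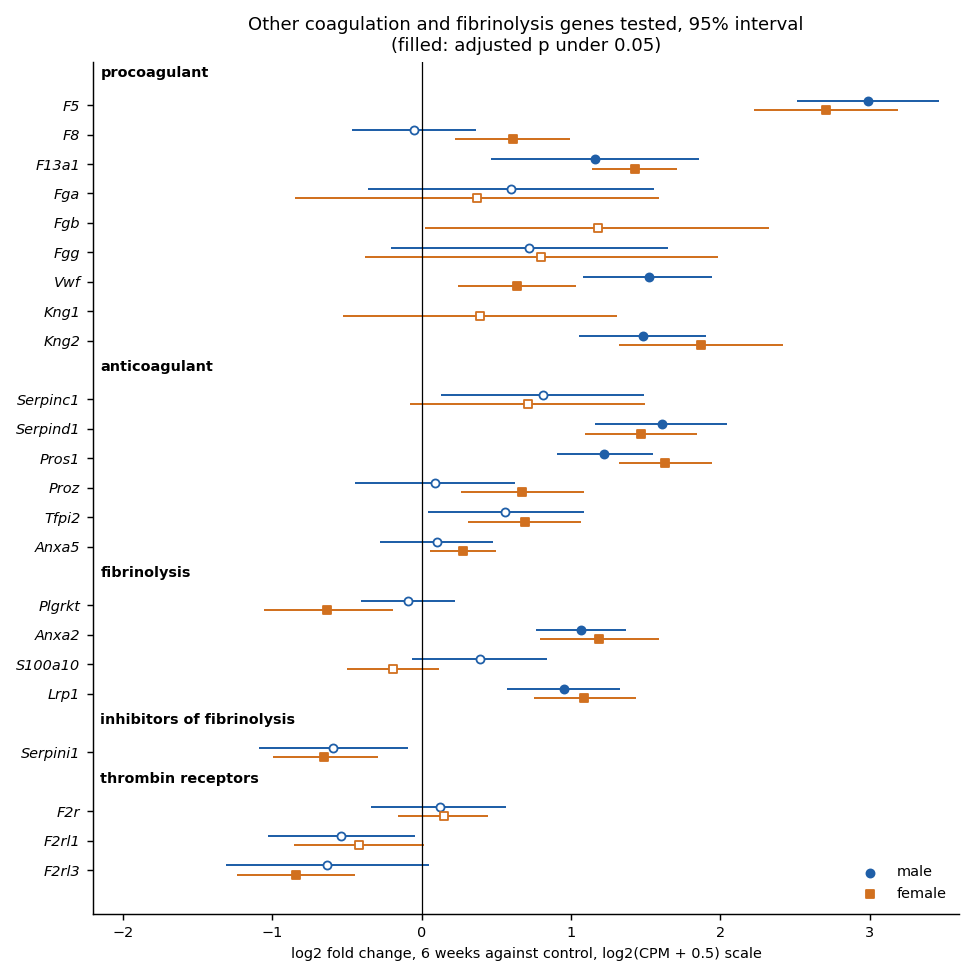
Log2 fold change at 6 weeks against control (horizontal axis, log2(CPM + 0.5) scale) of other coagulation and fibrinolysis genes tested, by role, with 95% intervals, males as blue circles and females as orange squares, filled where the adjusted p is under 0.05. *F5* lies farthest to the right, at 2.99 in males and 2.71 in females, and *Anxa2* at 1.07 and 1.19.

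As a description of which genes had the most similar pattern, the 2 genes with the highest correlation in both sexes were taken for each of the genes but *F10*, which was not in the male fit, over 18 male and 20 female libraries that share the same 5 groups. For *Serpine2* they were *Dpt* (Pearson r = 0.98 in males and 0.97 in females) and *Aebp1* (0.96 and 0.96). For *Plat* they were *Fam114a1* (0.95 and 0.93) and *Rab8b* (0.93 and 0.93), and for *Procr* *Rcn3* (0.92 and 0.91) and *Ergic3* (0.92 and 0.91). *F3* was closest to *Usp2* (0.84 and 0.81) and *Hlf* (0.86 and 0.80), and *Plau* to *Gprc5c* (0.85 and 0.86) and *Arsi* (0.82 and 0.87). The highest values were lower for *Plaur* (*Ndn*, 0.71 and 0.84), *Thbd* (*Cmip*, 0.79 and 0.76) and *Tfpi* (*Ecm2*, 0.72 and 0.73).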

How the data were processed

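Paired-end reads of polyA RNA were mapped by the authors to GRCm39 (STAR), summed over genes (featureCounts) and handled in edgeR. The deposited signal values, 1 table per sex, are in CPM. Columns sum to 817395 to 1196278, so the values also carry a scaling factor for each library, which rescaling to a common sum takes out. In every library 100% of values were within 0.001 of whole reads after division by the library's step, so reads could be recovered for the count tools. The tables list 17646 male and 17223 female genes. Groups and replicate numbers came from the labels, and 2 male libraries with contradictory labels entered no group. Replicates are separate mice.

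Tests used limma 3.58.1 (R 4.3.3, trend option) on log2(CPM + 0.5), all groups of a sex in 1 fit, with Benjamini-Hochberg adjustment over all genes tested. The fit was tested on simulated data. Alternatives were pseudocounts of 0.1 and 2, other filters and scalings, 2 groups in the fit, a replicate block, edgeR 4.0.16, DESeq2 1.42.0 and each library left out in turn. The interval for a ratio of reads is exact (Clopper-Pearson) and covers counting error only. Sequences and positions come from GRCm39 with GENCODE annotation. Upstream regions that hold exons of another transcript of the same gene are not printed whole.

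The 9 genes, the list of 40 further genes and the marker lists were chosen with earlier results of these data known. Genes named beside the 9 are *Vwf*, *F13a1*, *F2r*, *Pros1*, *Lrp1*, *Anxa2* and *S100a10* whatever they did, those called with a 2-fold change at 6 weeks in both sexes, and the 2 most alike in pattern. *Fga*, *Fgg*, *F2rl3*, *Kng1*, *Serpini1*, *Plgrkt* and single markers were named after their values were seen. A further gene of the list is counted but not reported here.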

Additional observations from a re-analysis of the deposited data

Results flagged for a closer look

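The 2 male libraries that entered no group carry labels of both control and 6 weeks. *Il11* was 511 CPM in the library titled control and described as 6 weeks and 0.597 CPM in the library titled 6 weeks and described as control, and since groups came only from labels neither was placed. The library titled control and described as 6 weeks held 75.9 CPM of *Serpine2*, 39.8 of *Plat*, 3.12 of *Plaur*, 113 of *Thbd* and 1.31 of *Procr*, each above all 3 male controls. In the library titled 6 weeks and described as control, 0.358 CPM of *F10* and 57.2 CPM of *Tfpi* were above all 3 male controls. Neither value was tested.

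In 72 sets of 4 libraries (a gene in a group) looked at for a library that stood apart by Dixon's test, 5 did, all in females, where chance gives about 1 in 20. These were *Plat* at 1 week in replicate 2, the highest at 43.7 CPM, *Plau* at 3 weeks in replicate 2, the lowest at 4.64 CPM, *Plaur* in uninduced replicate 3, the highest at 4.06 CPM, *Procr* at 6 weeks in replicate 2, the highest at 5.46 CPM, and *Tfpi* at 3 weeks in replicate 4, the highest at 55.5 CPM.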

How the results depend on the processing

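Calls of *Serpine2*, *Plat* and *Procr* against control at each week, of *Plau* in females at each week and of *Plaur* in females at 6 weeks held under all alternatives. The 56 changes in the 9 genes counted here were called in the main fit, as 38 were, or under an alternative. Over their 978 alternative values, 899 kept direction and side of the threshold, 44 lost a call, 32 gained a call and 3 turned direction. The 3 are *Tfpi* with columns rescaled to a common sum, at 1 week 0.03 in males and 0.03 in females and at 6 weeks in females 0.31. The median of all genes under that scaling was 0.33, 0.28 and 0.34 in these 3 comparisons. The *F3* call in females at 6 weeks was lost without control replicates 2, 3 or 4 or 6-week replicates 1, 2 or 3 and in 5 other settings, the *Tfpi* call in females at 1 week without control replicates 1, 3 or 4 or 1-week replicates 1 or 3, and the *Plau* call against uninduced females without uninduced replicates 1 or 4 or 6-week replicates 2, 3 or 4 and in 3 other settings.

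Among the counts of the 9 genes called, male uninduced against control went from 1 to 0 with a pseudocount of 2, the replicate block, edgeR and each library left out (0 to 0). Male 1 week against control ranged from 3 to 5 with a library left out, 3 without control replicate 3. Female 6 weeks against 1 week and against 3 weeks rose from 0 to 2 in DESeq2, and ranged from 0 to 2 with a library left out, highest without 6-week replicate 4 and without 6-week replicate 1. Female 6 weeks against uninduced fell from 5 to 3 with 2 groups in the fit. Of the 40 further genes, uninduced against control gave 1 call in males with 2 groups in the fit, and in females 3 with columns rescaled, 4 in DESeq2 and 1 to 2 with a library left out (2 without uninduced replicate 2). The causes were not tested.

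Replicate numbers did not pair libraries on average: the mean correlation of residuals between same-numbered libraries was 0.0132 in males and 0.0255 in females. Single pairs ran from -0.134 to 0.256 in males and from -0.342 to 0.563 in females. Of these, 4 of 33 male and 12 of 40 female pairs were over 0.1, so likeness within some pairs is not excluded. With the replicate block *Serpine2* in uninduced males changed by 0.58 (adjusted p = 0.0714), male *Thbd* at 3 weeks gained a call (0.68, adjusted p = 0.043) and male *Tfpi* at 1 week gained a call (-0.34, adjusted p = 0.0491). Depth limits *F10*, with 0 to 17 reads per male library.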

Other observations

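Lists of cell type markers at 6 weeks against control are described by their counts in the same limma test, in which 16.2% of all genes rose and 10.9% fell in males and 21.7% rose and 21% fell in females. Of 8 fibroblast markers 7 rose in each sex, and of 8 macrophage markers 8 rose in each sex. Of 12 endothelial markers 5 fell in males and 8 in females (median log2 change -0.42 and -0.54), and with columns rescaled 1 and 3 were called. Of 8 cardiomyocyte markers 1 fell in males and 4 in females, and of 8 pericyte and smooth muscle markers 2 fell in each sex. The male cardiomyocyte count and the female pericyte count are near the share over all genes, and rescaling left 0 cardiomyocyte calls in females. Of 4 neutrophil markers tested 2 rose in each sex, and of 4 platelet markers tested 3 rose and 1 fell in males and 2 rose in females. Of 6 mesothelial markers 5 rose in females, and in males limma called 0 (median 1.48, 2 at an unadjusted p under 0.05, and 2 by edgeR and by DESeq2), with sums of 6.62 to 32 CPM at 6 weeks. Limma, edgeR and DESeq2 called 0 of 5 erythroid markers in either sex, with 0 at an unadjusted p under 0.05 in limma. Of 5 hepatocyte markers limma called 0 in either sex, with 0 at an unadjusted p under 0.05, where edgeR called 2 in males and 0 in females and DESeq2 2 in each.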
